A study of Mus musculus with 9 samples.

Results

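Claudins, connexins and desmosomal cadherins are the membrane proteins from which tight junctions, gap junctions and desmosomes are built, and their genes were followed in mouse neck skin with allergic contact dermatitis. Members were found by gene symbol, as Cldn or Gja to Gje followed by digits, or Dsg or Dsc followed by a digit, among array clusters that carry a single symbol. The rule found 48 members of 30142 genes: 23 claudins, 16 connexins and 9 desmosomal cadherins, the last made up of 6 desmogleins and 3 desmocollins. No member had more than 1 cluster. A cluster annotated as Cldn25 belongs by its gene ID to Cldnd1, a gene for a claudin domain protein outside the numbered claudins, and was not counted.

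All 9 arrays measured total RNA from whole neck skin of male C57BL/6 mice aged 6 to 8 weeks, with 3 arrays in each of 3 groups. Control skin is labelled as healthy. Oxazolone, a synthetic hapten, or urushiol, the allergenic oil of poison ivy, was put on the abdomen at 2.0% and, from 5 days later, on the nape at 0.5% in 40 µl of acetone, 5 times up to day 8, with tissue collected 4 hours after the last painting. The sources used here do not say how control mice were handled, so shaving, acetone and allergen cannot be told apart in a comparison with control. The arrays are labelled as biological replicates, and whether each is a single mouse is not stated.

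Tight junctions seal the space between cells, and the claudins in their strands decide which ions pass. Gap junctions are bundles of channels in which connexins of neighbouring cells dock and let small molecules through. In desmosomes, desmogleins and desmocollins bind their partners on the next cell and are anchored through plakoglobin, plakophilins and desmoplakin to keratin filaments, which gives the epidermis its mechanical strength. Desmoglein 1 and desmocollin 1 belong to the upper epidermis and desmoglein 3 to its lower layers, while Gjb2 and Gjb6 are known to be low in resting epidermis and high in wounded or thickened epidermis.

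The values are the deposited log2 expression values, so a difference of 1 unit is a doubling where the scale is a true log2 scale. Values reach 18.14 among members and 19.93 on the arrays, past the log2 limit of 16 of a 16-bit scanner, and the step that took them there is not stated. Array medians lay between 5.53 and 5.64. The keratinocyte keratins Krt5, Krt14 and Krt10 read at least 17.52, 15.68 and 17.93 on every array, which fits the labelled tissue. Krt14 rose by 2.53 with oxazolone and 3.07 with urushiol (adjusted p = 0.0034 and 0.0016) and Krt1 by 1.98 and 2.12 (adjusted p = 0.0084 and 0.0062). Krt2 read 4.49 to 4.64, below the median of every array. Krt15 fell by 4.17 with oxazolone and 4.70 with urushiol (adjusted p = 0.00048 and 0.00034) and Lor, loricrin, by 1.62 and 1.58 (adjusted p = 0.0073 and 0.0076). Of 7 basal keratinocyte markers 2 were called higher and 1 lower with each allergen. Of 6 suprabasal markers 1 was higher and 1 lower with oxazolone, and 3 higher and 1 lower with urushiol. The third control array differed from its group: the mean of 13 hair follicle markers was 12.36 on control array 3, against 6.09 and 6.27 on control arrays 1 and 2, 11.81 to 14.60 on oxazolone arrays and 11.12 to 11.88 on urushiol arrays. The mean of 10 skeletal muscle markers fell from 15.83 to 17.95 in control to 7.01 to 9.08 with oxazolone and 11.07 to 12.17 with urushiol, and all 10 were called lower in both comparisons. Stressed keratinocyte markers (Krt16, Krt17, Sprr1b and Sprr2d, with Krt6a not measured) were all 4 called higher in both, with means of 8.01 to 9.85 in control, 14.33 to 16.12 with oxazolone and 15.82 to 16.58 with urushiol. In whole skin, fewer cells of a type and less RNA per cell cannot be told apart, and the part of these shifts in the junction results was not tested.

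Among the 48 members, 7 were higher and 3 lower with oxazolone at an adjusted p under 0.05 (limma, Benjamini-Hochberg over 30142 genes), while 9.63% of all genes were called higher and 6.92% lower. With urushiol 11 members were higher and 4 lower, beside 9.96% and 6.43% of all genes. Of 9 desmosomal cadherins 3 were higher with oxazolone and 7 with urushiol, and none was lower. The 7 include the near-identical copies Dsg1a, Dsg1b and Dsg1c, which may not be separate readings. Of 16 connexins 2 were higher and 1 lower with oxazolone, and 4 were higher and 2 lower with urushiol. Of 23 claudins 2 were higher and 2 lower with oxazolone, and none was higher and 2 were lower with urushiol. The median difference from control was 0.57 and 1.14 for cadherins with oxazolone and urushiol, 0.13 and 0.15 for connexins, 0.09 and 0.07 for claudins, and 0.06 and 0.04 for all genes. Dim clusters are spread unevenly over the types: 14 of 23 claudins, 9 of 16 connexins and none of the cadherins lay above the median of all clusters on fewer than 3 arrays. All-gene shares include such dim genes. A fit of the 18017 genes above that median on at least 3 arrays called 3697 higher and 2476 lower with oxazolone. With urushiol it called 3656 higher and 2294 lower. The F test for any difference among the 3 groups called 11 of 48 members and 14.1% of all genes.

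**Figure D1:**
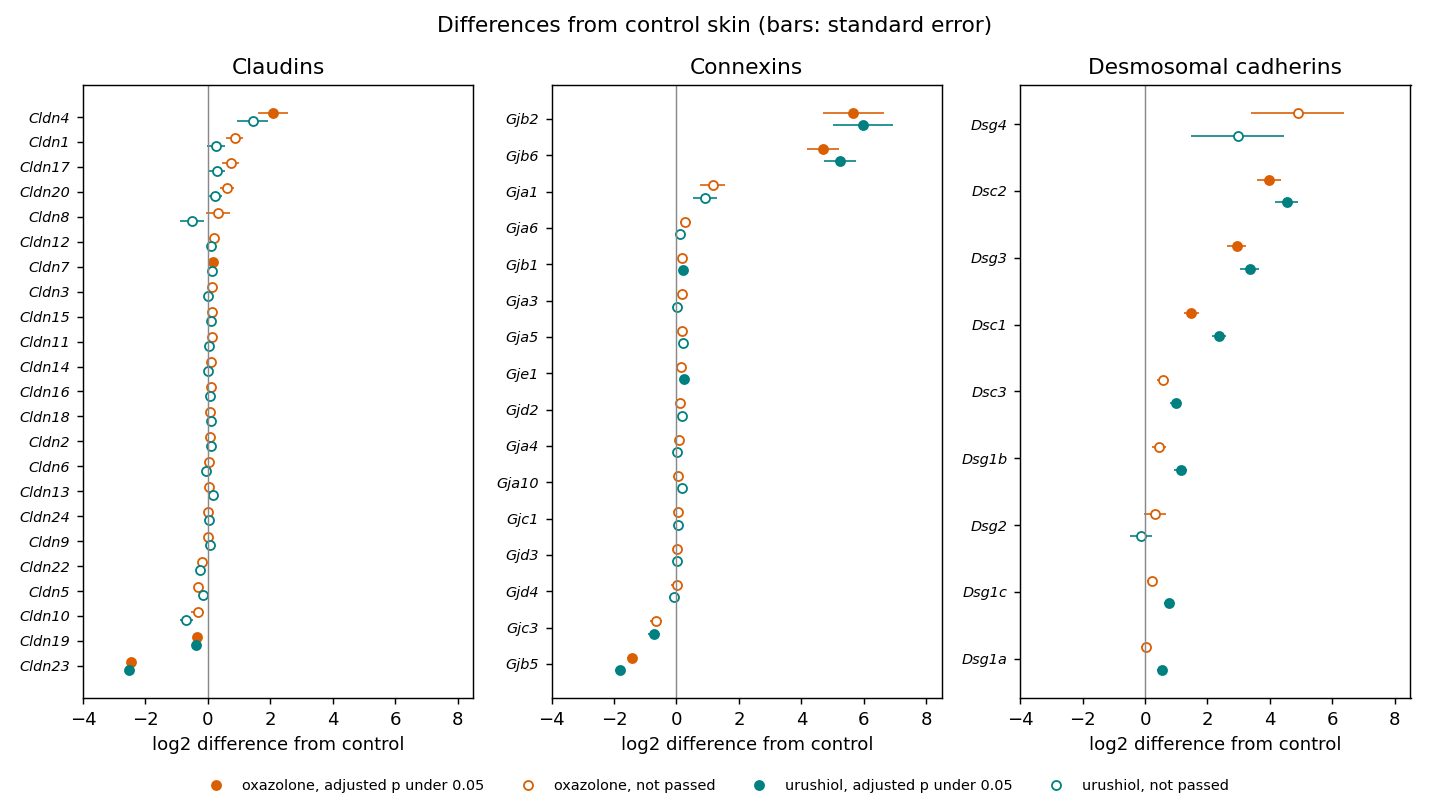
Log2 difference from control for each of the 48 members (x axis, log2 units) by junction type, with oxazolone in orange and urushiol in green. Points are differences of group means over 3 arrays per group, bars are standard errors, and filled points have an adjusted p under 0.05. Most claudins and connexins lie near 0, Gjb2, Gjb6, Dsg3, Dsc1 and Dsc2 lie far to the right, as does Dsg4 with wide bars and open points, and Cldn23 and Gjb5 lie to the left in both.

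Calls in both comparisons that held whichever single array was left out came from 7 members: Gjb2, Gjb6, Dsg3, Dsc1 and Dsc2, which rose, and Gjb5 and Cldn23, which fell. Other calls ended without 1 or more single arrays. Without control array 3 the members called were 13 higher and 4 lower with either allergen, and the cadherins called higher were 6 with oxazolone and 8 with urushiol. Calls over all 30142 genes rose as well without that array, to 4749 higher and 3270 lower with oxazolone and 4566 and 3089 with urushiol. Partner counts without control array 3, given below, stand beside this rise. After quantile renormalisation 6 members were higher and 5 lower with oxazolone, and 7 higher and 4 lower with urushiol. Over all genes that step turned 2904 higher and 2085 lower into 2127 and 2937 with oxazolone, and 3003 and 1939 into 2297 and 2341 with urushiol.

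Among called members the largest rises were in connexins. Gjb2 and Gjb6, neighbours on chromosome 14 with no protein-coding gene between them, rose with both allergens, and Gjb5, another keratinocyte connexin, fell with both. The bases before their RefSeq start sites are shown because 2 of these genes lie side by side and moved alike while the third moved the other way. Each run is 250 bases on the gene's strand from RefSeq on GRCm38.p6, 5′ to 3′, at chr14:57104703-57104952 for Gjb2, chr14:57133612-57133861 for Gjb6 and chr4:127358165-127358414 for Gjb5, all from the minus strand, with motif matches in capitals.
Gjb2: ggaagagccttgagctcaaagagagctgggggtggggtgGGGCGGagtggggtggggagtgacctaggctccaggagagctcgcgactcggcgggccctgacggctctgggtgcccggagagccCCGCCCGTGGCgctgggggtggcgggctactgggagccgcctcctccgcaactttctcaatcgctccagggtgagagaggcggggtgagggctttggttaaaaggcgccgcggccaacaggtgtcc
Gjb6: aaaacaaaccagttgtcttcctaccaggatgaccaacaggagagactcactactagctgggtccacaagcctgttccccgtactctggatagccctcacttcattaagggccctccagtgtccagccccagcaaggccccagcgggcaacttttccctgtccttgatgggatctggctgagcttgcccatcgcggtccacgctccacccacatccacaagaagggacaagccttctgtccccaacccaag
Gjb5: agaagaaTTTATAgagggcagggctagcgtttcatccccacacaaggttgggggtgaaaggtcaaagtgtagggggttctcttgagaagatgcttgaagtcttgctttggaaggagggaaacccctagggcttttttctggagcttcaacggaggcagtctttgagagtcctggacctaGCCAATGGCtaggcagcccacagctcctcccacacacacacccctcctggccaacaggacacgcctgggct
Both strands were searched for TGANTCA, which AP-1 factors bind. The other motifs were GGGCGG, known as the GC box, then TATAAA for the basal machinery, TTCNNNGAA for STAT factors and GCCNNNGGC for AP-2 factors. Among 32851 such windows in the RefSeq table, 6.75%, 32.7%, 12.4%, 7.02% and 13.7% held at least 1 match, in that order. The Gjb2 window, with 69.2% G and C, held 2 GC boxes and 1 AP-2 match that overlaps the second of them. The Gjb6 window held none of the motifs, and the Gjb5 window held TATAAA on the opposite strand and an AP-2 match. These are letter matches only, and 31 of 48 members had an entry in the table.

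Gjb2, the connexin gene most often mutated in inherited deafness, read 6.36, 6.23 and 10.06 on control arrays 1 to 3, 13.15, 12.74 and 13.76 with oxazolone and 13.50, 13.56 and 13.53 with urushiol. All 6 challenged arrays lay above all controls, and control array 3 lay well above the other 2. The difference from control was 5.67 with oxazolone (SE 0.964, adjusted p = 0.0115) and 5.98 with urushiol (SE 0.964, adjusted p = 0.0091). Without control array 3 it was 6.92 and 7.24, and a fit of oxazolone and control alone ended the first call (adjusted p = 0.0532). Gjb6, whose protein can share channels with that of Gjb2, read 5.27, 5.24 and 6.29 in control, 10.13, 9.37 and 11.38 with oxazolone and 11.15, 10.71 and 10.65 with urushiol. Again every challenged array lay above every control, and control array 3 was the highest control. Gjb6 rose by 4.69 with oxazolone (SE 0.522, adjusted p = 0.0027) and by 5.24 with urushiol (SE 0.522, adjusted p = 0.0018). Gja3, which flanks Gjb2 on its other side and is known from the lens, read between 5.44 and 5.79 on all 9 arrays and passed neither test.

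Gjb5 ran the other way. Its values were 9.46, 9.54 and 9.53 in control, 8.38, 8.09 and 7.75 with oxazolone and 7.75, 7.78 and 7.54 with urushiol. The controls lay close together and above every challenged array. Gjb5 fell by 1.44 with oxazolone (SE 0.151, adjusted p = 0.0023) and by 1.82 with urushiol (SE 0.151, adjusted p = 0.000995).

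Gja1, the most widespread connexin of skin, read 7.81, 7.85 and 9.07 in control, 9.07, 10.02 and 9.11 with oxazolone and 9.07, 9.18 and 9.19 with urushiol. Control array 3 equalled the lowest challenged arrays, so the groups met. The differences of 1.16 (adjusted p = 0.0833) and 0.90 (adjusted p = 0.160) did not pass, and without control array 3 they were 1.57 (adjusted p = 0.0092) and 1.32 (adjusted p = 0.0178). Gja1 shared a high control array 3 with the hair follicle markers, but not with those alone. Means on control array 3 against arrays 1 and 2 were 14.08 against 13.09 and 13.18 for suprabasal keratinocyte markers. They were 9.85 against 8.01 and 8.56 for stressed keratinocyte markers and 8.85 against 5.78 and 5.71 for melanocyte markers. The part of any of these in the Gja1 values was not tested.

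Gjc3, a connexin of myelinating glia including Schwann cells, read 7.66, 7.61 and 7.27 in control, 6.98, 6.88 and 6.70 with oxazolone and 6.40, 6.98 and 7.00 with urushiol. Every challenged array lay below every control. The difference passed with urushiol (-0.72, SE 0.186, adjusted p = 0.0414) and missed with oxazolone (-0.66, adjusted p = 0.0523). The urushiol call ended in 8 of 9 fits that leave out 1 array (adjusted p 0.0611 to 0.130) and held only without control array 3, while oxazolone passed without control array 3 (adjusted p = 0.0295) or urushiol array 1 (adjusted p = 0.0229) and after both rescalings (median centring 0.0385, quantile 0.0474). Schwann cell markers were lower as well: 3 of 4 measured (Cdh19, Pmp22 and Mbp, not Sox10) were called lower in each, with list means of 8.07 to 8.53 in control, 7.39 to 7.51 with oxazolone and 7.51 to 7.77 with urushiol. Their part in the Gjc3 result was not tested.

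**Figure D2:**
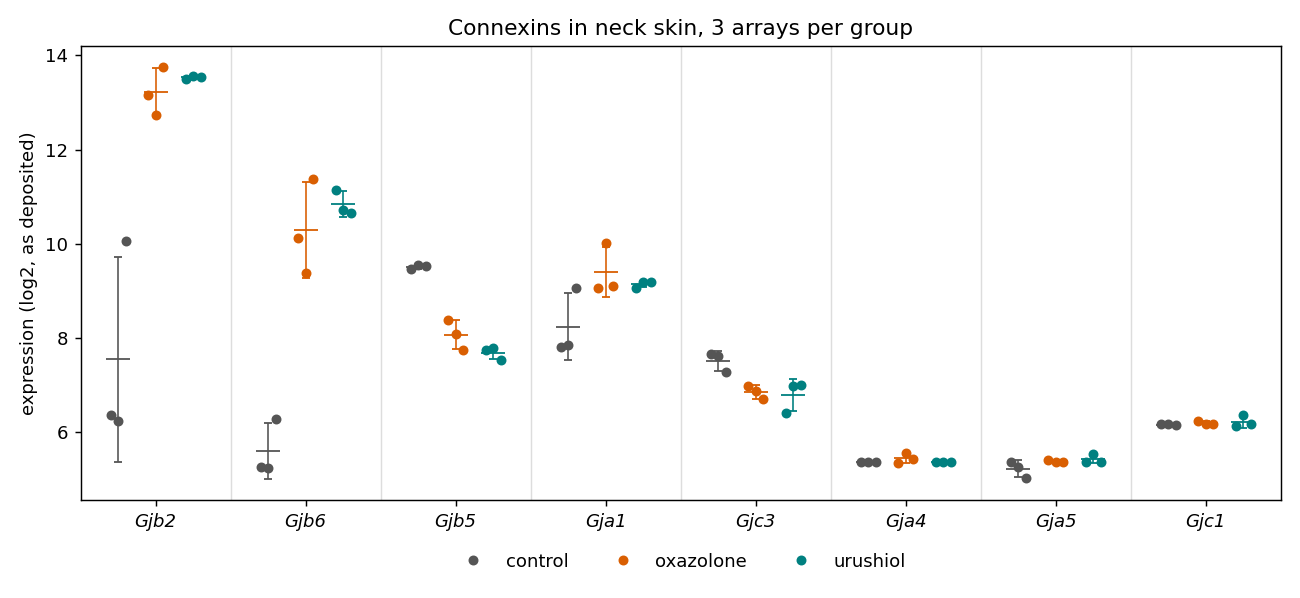
Log2 expression as deposited (y axis) of 8 connexins on each array, with control in grey, oxazolone in orange and urushiol in green. Points are arrays, horizontal lines are group means and bars are SD (n = 3). Gjb2 and Gjb6 are high and Gjb5 low on all 6 challenged arrays, and 1 control array of Gjb2 lies at 10.06.

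The other connexins were flat and mostly dim. Gjb1 and Gje1, named after their values were seen, were called higher with urushiol by 0.22 (adjusted p = 0.0296) and 0.25 (adjusted p = 0.0293) at levels of 3.92 to 4.43, below the median of all clusters on every array. Each call ended in 5 of 9 fits leaving out 1 array (adjusted p up to 0.0968) and under both rescalings: for Gjb1 without control arrays 1 and 2, oxazolone array 3 and urushiol arrays 2 and 3, and for Gje1 without control arrays 1 and 2, oxazolone array 3 and urushiol arrays 1 and 2. Gjb1 passed with oxazolone only without control array 3 (adjusted p = 0.0364) or urushiol array 1 (adjusted p = 0.0444) among those fits. Gja4, an endothelial connexin, read 5.36 to 5.38 in control, 5.35 to 5.56 with oxazolone and 5.37 to 5.38 with urushiol, below the median of all clusters on all 9 arrays. The remaining 8 connexins, Gja3 among them, passed in neither comparison and lay within 0.5 of control.

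The 9 desmosomal cadherin genes lie in 1 row on chromosome 18, from Dsc3 through Dsc2, Dsc1, Dsg1c, Dsg1a, Dsg1b, Dsg4 and Dsg3 to Dsg2, with no other protein-coding gene between neighbours. The calls were not alike along the row: Dsg3, Dsc2 and Dsc1 rose with both allergens, the Dsg1 genes and Dsc3 passed with urushiol alone, and Dsg2 and Dsg4 passed in neither. No cadherin was called between the allergens. Desmosomal cadherins had positive differences from control for 9 of 9 genes with oxazolone and 8 of 9 with urushiol, but after quantile renormalisation those with oxazolone were 7 of 9. Dsg1a turned to -0.48 (adjusted p = 0.0293), a fall, and Dsg1c to -0.41 (adjusted p = 0.0646). Median centring also turned Dsg1a with oxazolone. Quantile renormalisation reduced Dsc1 with oxazolone to 0.95 (adjusted p = 0.0033), Dsc3 with urushiol to 0.54 (adjusted p = 0.0324) and Dsg1b with urushiol to 0.72 (adjusted p = 0.0205), which still passed.

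Dsg3, the autoantigen of pemphigus vulgaris, read 12.25, 12.28 and 13.09 in control, 15.63, 15.10 and 15.69 with oxazolone and 16.27, 15.45 and 15.96 with urushiol. Every challenged array was about 2 units or more above every control. Dsg3 rose by 2.93 with oxazolone (SE 0.307, adjusted p = 0.0023) and by 3.35 with urushiol (SE 0.307, adjusted p = 0.0013). Dsc2, the desmocollin of simple epithelia and heart, read 7.43, 7.58 and 8.30 in control, 11.80, 11.43 and 11.99 with oxazolone and 12.96, 12.32 and 11.63 with urushiol. No challenged array came near the controls. It rose by 3.97 with oxazolone (SE 0.372, adjusted p = 0.0016) and by 4.53 with urushiol (SE 0.372, adjusted p = 0.00097).

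Dsc1, the desmocollin of the upper epidermis, read 15.44, 15.25 and 16.11 in control, 17.27, 16.91 and 17.08 with oxazolone and 18.13, 17.99 and 17.76 with urushiol. The 3 groups did not overlap, in the order control, oxazolone, urushiol. Dsc1 rose by 1.49 with oxazolone (SE 0.226, adjusted p = 0.0079) and by 2.36 with urushiol (SE 0.226, adjusted p = 0.0016), with 7 of 9 values past 16. The oxazolone call ended when the test was for a difference over 0.5 (adjusted p = 0.0518). Dsc3, found through all living layers of the epidermis, read 16.85, 16.59 and 17.34 in control, 17.63, 17.39 and 17.48 with oxazolone and 18.05, 17.72 and 17.94 with urushiol. Its urushiol difference of 0.98 passed (SE 0.189, adjusted p = 0.0167) but did not without control array 1, urushiol array 1 or urushiol array 3 (adjusted p 0.0577 to 0.0637). With oxazolone 0.57 missed (adjusted p = 0.0798), and 0.78 without control array 3 passed (adjusted p = 0.0071).

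The mouse has 3 near-identical copies of the desmoglein 1 gene, the target of pemphigus foliaceus and of staphylococcal exfoliative toxin, and how far their probes tell the copies apart was not tested. Dsg1b read 16.57, 16.33 and 17.05 in control, 17.31, 16.75 and 17.24 with oxazolone and 17.92, 17.78 and 17.67 with urushiol. Urushiol arrays lay above all others, while oxazolone and control met. Its urushiol difference was 1.14 (SE 0.214, adjusted p = 0.0153), with adjusted p of 0.0502 to 0.0598 without control array 1, control array 2 or urushiol array 1, and its oxazolone difference was 0.45 (adjusted p = 0.187), or 0.65 without control array 3 (adjusted p = 0.0462).

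Dsg1c read 15.78, 15.55 and 16.15 in control, 16.19, 15.82 and 16.11 with oxazolone and 16.64, 16.63 and 16.48 with urushiol. The urushiol arrays again lay above all others, and the differences were 0.76 with urushiol (SE 0.162, adjusted p = 0.0236) and 0.21 with oxazolone (adjusted p = 0.396). The urushiol call ended without control arrays 1 or 2 or any urushiol array (adjusted p 0.0569 to 0.0814), and quantile renormalisation left 0.17 (adjusted p = 0.439). Dsg1a read 17.47, 17.25 and 17.75 in control, 17.70, 17.29 and 17.53 with oxazolone and 18.06, 18.14 and 17.92 with urushiol. Only the urushiol arrays stood clear, by 0.55 (SE 0.151, adjusted p = 0.0485), while oxazolone differed by 0.02 (adjusted p = 0.956). That urushiol call held without control array 3 and ended without any other single array (adjusted p 0.0534 to 0.138), and quantile renormalisation left 0.07 (adjusted p = 0.746).

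Dsg2, a desmoglein of simple epithelia and heart that is sparse in epidermis, read 8.50, 8.98 and 9.90 in control, 9.15, 9.85 and 9.36 with oxazolone and 8.73, 9.13 and 9.15 with urushiol. All groups overlapped, with differences of 0.33 (SE 0.360, adjusted p = 0.561) and -0.12 (adjusted p = 0.871). Dsg4, the desmoglein of the hair shaft, read 5.62, 5.30 and 10.52 in control, 10.33, 14.00 and 11.76 with oxazolone and 9.67, 10.33 and 10.33 with urushiol. Control array 3 lay among the challenged arrays and above the whole urushiol group. The differences of 4.88 (SE 1.50, adjusted p = 0.0666) and 2.96 (adjusted p = 0.227) missed the threshold, and without control array 3 they were 6.57 (adjusted p = 0.0047) and 4.65 (adjusted p = 0.0168).

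**Figure D3:**
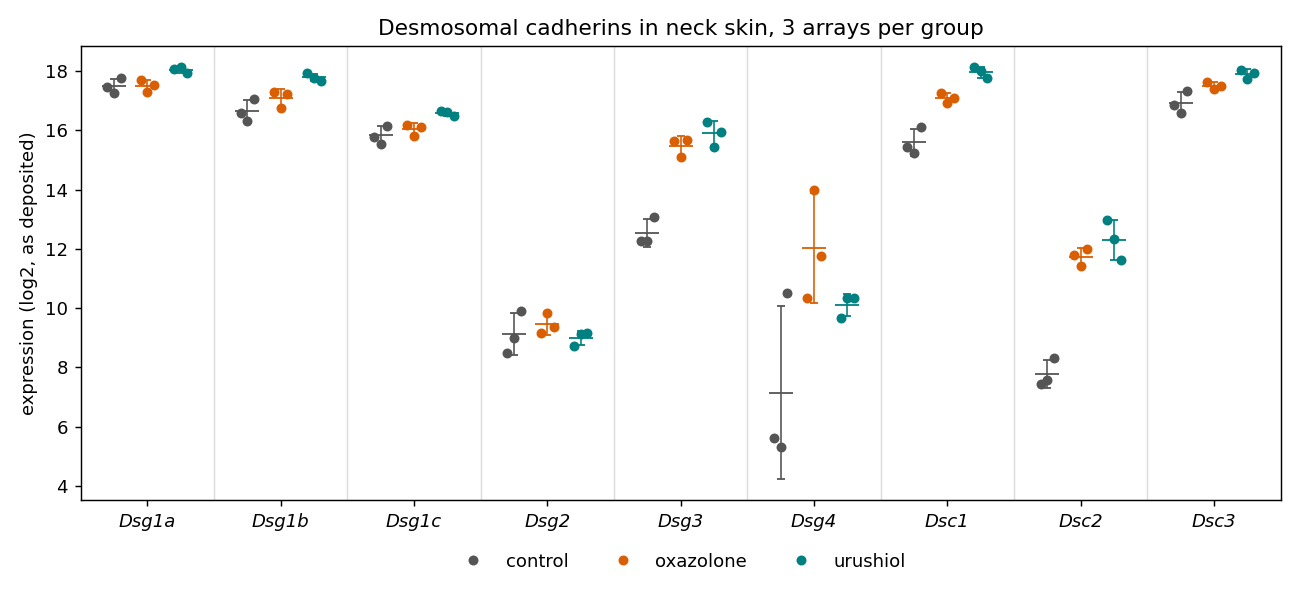
Log2 expression as deposited (y axis) of the 9 desmosomal cadherins on each array, with control in grey, oxazolone in orange and urushiol in green. Points are arrays, horizontal lines are group means and bars are SD (n = 3). Dsg3, Dsc1 and Dsc2 lie higher on all 6 challenged arrays than on any control, and Dsg4 spans 5.30 to 10.52 within the control group.

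The count of cadherins called higher with urushiol rested on single arrays: 7 in the fit of all arrays became 3 without control array 1 or urushiol array 1 and 4 without control array 2 or urushiol array 3. Among the plaque and envelope partners of these cadherins, 3 of 9 were higher with urushiol and none with oxazolone, where 1 was lower. The shares over all genes were 9.96% higher with urushiol, and 9.63% higher and 6.92% lower with oxazolone. Pkp1, a plakophilin of the upper epidermis, rose by 1.56 with urushiol (adjusted p = 0.0226) and Jup, plakoglobin, by 1.11 (adjusted p = 0.0450). Perp, a tetraspan desmosomal protein named after its value was seen, rose by 1.01 (adjusted p = 0.0176). Ppl, periplakin, fell by 1.02 with oxazolone (adjusted p = 0.0378). Without control array 1 or 2 none of the 9 was higher with urushiol, without control array 3 the number was 6, and without urushiol array 1, 2 or 3 it was 1, 1 and 0. The Jup call held without control array 3 and ended without any other array (adjusted p up to 0.126), the Pkp1 call ended without control arrays 1 or 2 or urushiol arrays 2 or 3 (up to 0.0794) and the Perp call without control arrays 1 or 2 or urushiol arrays 1 or 3 (up to 0.0662). Quantile renormalisation also ended the calls of Pkp1 (adjusted p = 0.0733) and Jup (adjusted p = 0.165). The Ppl call held without control array 1 or urushiol array 2 and ended without any other array (adjusted p 0.0528 to 0.119). Desmoplakin (Dsp) differed by 0.22 and 0.65 and corneodesmosin (Cdsn) by 0.27 and 0.87, with no call (adjusted p 0.0936 to 0.559).

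The largest fall of a called member was in a claudin. Cldn23, one of the less studied claudins, read 9.91, 10.23 and 10.13 in control, 7.54, 7.78 and 7.57 with oxazolone and 7.51, 7.83 and 7.37 with urushiol. The 2 challenged groups overlapped each other and lay over 2 units below every control. Cldn23 fell by 2.46 with oxazolone (SE 0.139, adjusted p = 0.00032) and by 2.52 with urushiol (SE 0.139, adjusted p = 0.00032), and both calls held in each of 21 alternatives.

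Cldn4, a receptor for Clostridium perfringens enterotoxin, read 8.82, 9.28 and 9.67 in control, 10.50, 11.01 and 12.49 with oxazolone and 10.71, 10.52 and 10.82 with urushiol. Every challenged array lay above every control. Cldn4 was higher by 2.08 with oxazolone (SE 0.487, adjusted p = 0.0310), while 1.43 with urushiol missed the threshold (SE 0.487, adjusted p = 0.0911). The oxazolone call ended without control array 1, control array 2, oxazolone array 2, urushiol array 2 or urushiol array 3 (adjusted p 0.0536 to 0.0996), and urushiol passed without oxazolone array 3, the highest array (adjusted p = 0.0200), or in a fit of urushiol and control alone (adjusted p = 0.0358). Cldn3, the next gene on chromosome 5, read 4.82 to 4.89 in control, 4.89 to 5.13 with oxazolone and 4.81 to 4.90 with urushiol, below the median of all clusters on every array. The bases before both starts are shown because these neighbours, with no protein-coding gene between them, were not called alike with oxazolone, at chr5:134946935-134947184 for Cldn4 (minus strand) and chr5:134985964-134986213 for Cldn3 (plus strand), on GRCm38.p6 from RefSeq, 5′ to 3′ on the gene's strand with motif matches in capitals.
Cldn4: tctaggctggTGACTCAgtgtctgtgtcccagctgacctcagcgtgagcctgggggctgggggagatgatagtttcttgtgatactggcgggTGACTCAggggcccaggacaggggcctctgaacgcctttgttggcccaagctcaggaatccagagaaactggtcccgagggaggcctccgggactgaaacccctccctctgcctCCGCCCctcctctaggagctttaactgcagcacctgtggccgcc
Cldn3: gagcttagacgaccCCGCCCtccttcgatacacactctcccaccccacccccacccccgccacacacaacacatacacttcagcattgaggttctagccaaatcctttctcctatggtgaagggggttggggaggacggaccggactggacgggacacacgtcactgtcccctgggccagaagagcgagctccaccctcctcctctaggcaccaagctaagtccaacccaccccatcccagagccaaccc
The Cldn4 window held 2 AP-1 matches, at 240 and 158 bases before the start, and a GC box at 44. The Cldn3 window held a GC box at 236 bases and no AP-1 match. As above, AP-1 letters occur in 6.75% of windows and GC box letters in 32.7%, and nothing is read from them about binding.

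Cldn1, the claudin without which newborn mice lose water through the skin, read 13.94, 13.92 and 14.76 in control, 14.56, 15.34 and 15.28 with oxazolone and 14.52, 14.33 and 14.52 with urushiol. Control array 3 lay within the oxazolone range and above every urushiol array. The differences were 0.85 (SE 0.284, adjusted p = 0.0819) and 0.25 (adjusted p = 0.609), neither called, and without control array 3 oxazolone passed at 1.13 (adjusted p = 0.0156). Cldn5, the main claudin of endothelium, read 6.07, 6.41 and 6.00 in control, 5.98, 5.71 and 5.81 with oxazolone and 5.96, 6.05 and 6.00 with urushiol. It differed by -0.33 (adjusted p = 0.0968) and -0.16 (adjusted p = 0.412), while endothelial markers had means of 7.76 to 8.56, 7.37 to 8.53 and 8.03 to 8.43 in control, oxazolone and urushiol, and 1 of 7 measured (Tek) was called lower with oxazolone.

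Cldn19, known from kidney and from Schwann cells, read 5.56, 5.43 and 5.29 in control, 5.03, 5.11 and 5.12 with oxazolone and 5.12, 5.01 and 4.98 with urushiol. The values are dim but do not overlap with control. Cldn19 was lower by a small step with both allergens, -0.34 (SE 0.0752, adjusted p = 0.0262) and -0.39 (SE 0.0752, adjusted p = 0.0166). The oxazolone call ended without control arrays 1 or 2 or any oxazolone array (adjusted p up to 0.0798), and the urushiol call without control array 2 or urushiol arrays 2 or 3 (adjusted p up to 0.0599). It fell beside Gjc3 and the Schwann cell markers, whose part was not tested. Cldn7, a claudin of many epithelia, read 5.14 to 5.15 in control, 5.26 to 5.39 with oxazolone and 5.26 to 5.27 with urushiol. Its oxazolone difference of 0.17 (SE 0.0415, adjusted p = 0.0367) held without control array 3 and ended without any other array (adjusted p 0.0504 to 0.0996) and under both rescalings, and urushiol, at 0.12 (adjusted p = 0.0941), passed without oxazolone array 1 (adjusted p = 0.0457).

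**Figure D4:**
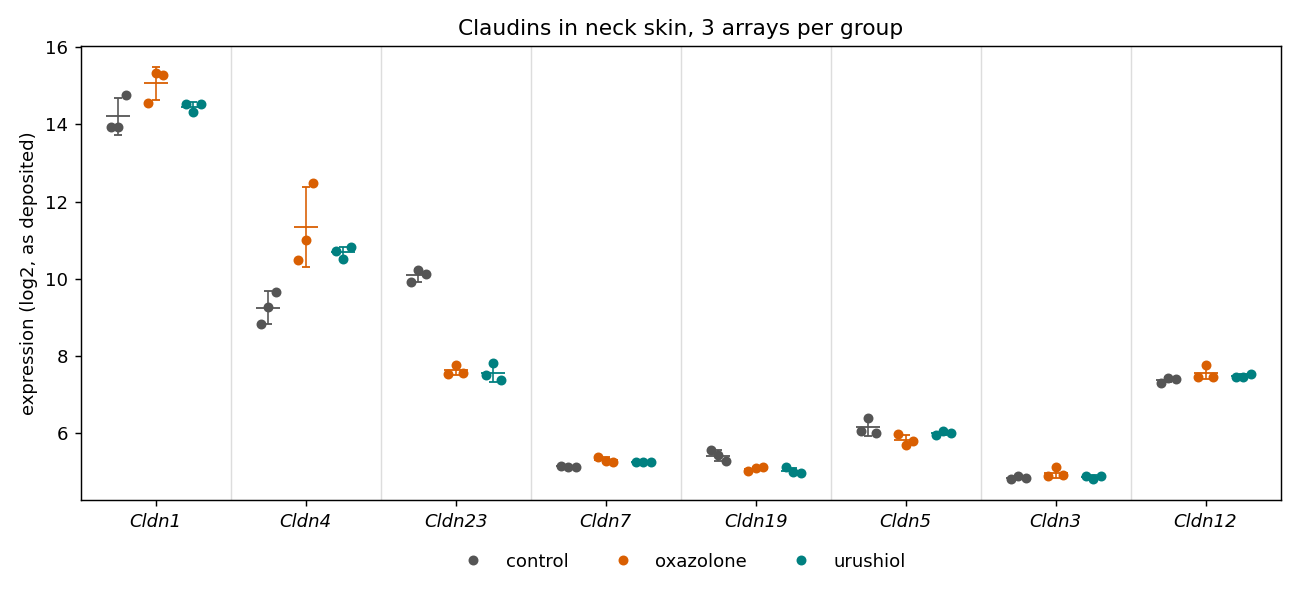
Log2 expression as deposited (y axis) of 8 claudins on each array, with control in grey, oxazolone in orange and urushiol in green. Points are arrays, horizontal lines are group means and bars are SD (n = 3). Cldn23 lies near 10 in control and between 7.37 and 7.83 on the 6 challenged arrays, Cldn4 lies higher on all of those, and the differences of the others shown reach 0.85, for Cldn1 with oxazolone.

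Of the 19 claudins not called with oxazolone 16 lay within 0.5 of control, and of the 21 not called with urushiol 18 did. Cldn10, named after its values were seen, differed by -0.69 with urushiol and did not pass (adjusted p = 0.0713). Cldnd1, outside the count, read 12.02, 12.31 and 12.33 in control, 13.19, 12.69 and 13.16 with oxazolone and 13.71, 13.30 and 13.49 with urushiol. It was higher by 0.79 with oxazolone (adjusted p = 0.0237) and 1.28 with urushiol (adjusted p = 0.0047), and the oxazolone call ended without control array 1 or 2 or oxazolone array 1 or 3 (adjusted p up to 0.0777) and after quantile renormalisation (adjusted p = 0.0995).

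Other tight junction genes leaned lower. Of 27 measured partners 3 were higher and 8 lower with oxazolone and 2 higher and 7 lower with urushiol, with median differences of -0.23 and -0.29. Of all genes 9.63% were higher and 6.92% lower with oxazolone, and 9.96% and 6.43% with urushiol. The all-gene median differences were 0.06 and 0.04. Cgn, cingulin, which links the junction to actin, fell by 1.85 (adjusted p = 0.00094) and 1.75 (adjusted p = 0.00098). Amotl1, an angiomotin relative that sits at the junction, fell by 1.81 (adjusted p = 0.0058) and 1.69 (adjusted p = 0.0070). F11r, junctional adhesion molecule A, was higher by 1.66 (adjusted p = 0.0213) and 1.33 (adjusted p = 0.0415), Magi3, a scaffold protein of the junction, by 0.86 with oxazolone (adjusted p = 0.0472), and Crb3, a polarity protein, by 0.62 (adjusted p = 0.0255) and 0.55 (adjusted p = 0.0369). The F11r call ended with oxazolone without control arrays 1 or 2 or oxazolone array 3 (adjusted p up to 0.0679), and with urushiol it held only without control array 3 or oxazolone array 3 (elsewhere up to 0.116). The Magi3 call held only without control array 3 (elsewhere 0.0671 to 0.138), and its urushiol difference of 0.73 (adjusted p = 0.0771) passed without control array 3 or oxazolone array 2. The Crb3 call ended with oxazolone without control arrays 1 or 2 or oxazolone arrays 1 or 3 (up to 0.0867), and with urushiol without control arrays 1 or 2, oxazolone array 1 or urushiol arrays 1 or 3 (up to 0.120). Quantile renormalisation also ended the F11r call with urushiol (adjusted p = 0.0530), and median centring the Crb3 call with urushiol (adjusted p = 0.0579). Without control array 1 or 2 no partner was higher with either allergen, without control array 3 the numbers were 7 and 5, and leaving out each array in turn gave 5 to 8 lower with oxazolone and 4 to 9 with urushiol.

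Among the pannexins, channel proteins related in shape to connexins, Panx1 was higher with oxazolone by 0.55 (adjusted p = 0.0305), the other two passed in neither, and the Panx1 call ended without control array 1 or 2 or oxazolone array 2 or 3 (adjusted p up to 0.0996). Median centring also ended the Panx1 call (adjusted p = 0.0559). Of 10 measured adherens junction genes (Ctnnb1 was not measured) 2 were higher and 1 lower with each allergen. The shares over all genes were 9.63% higher and 6.92% lower with oxazolone, and 9.96% and 6.43% with urushiol. Nectin3, a nectin adhesion receptor, fell by 0.96 with oxazolone (adjusted p = 0.0208) and by 1.50 with urushiol (adjusted p = 0.0046), and the first of these calls ended without control array 1 or 2 or oxazolone array 1 or 3 (adjusted p up to 0.0694). Vcl, vinculin, was higher by 0.94 (adjusted p = 0.0333) and 0.85 (adjusted p = 0.0442), Ctnna1, alpha-catenin, by 0.68 with oxazolone (adjusted p = 0.0470), and Ctnnd1, p120-catenin, by 0.54 with urushiol (adjusted p = 0.0397). Each of those 4 calls ended without control array 1 or 2 and after quantile renormalisation (adjusted p 0.0858 to 0.233). Leaving out 1 array, the Vcl call held only without oxazolone array 2 or urushiol array 1 with oxazolone and without oxazolone arrays 2 or 3 with urushiol, and those of Ctnna1 and Ctnnd1 only without control array 3. Without control array 3 the adherens genes called higher were 5 with either allergen.

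Urushiol and oxazolone skin were also compared directly. None of the 48 members was called by limma, and in all genes 0.00664% were called higher and 0.00995% lower with urushiol. An unadjusted p under 0.05 was reached by 6 members (12.5%), against 1772 of 30142 genes (5.88%). Among the 6 are the near-identical copies Dsg1a, Dsg1b and Dsg1c. How far their probes tell them apart was not tested, so the 6 may not be separate readings. The block by replicate number in the 6 challenged arrays alone also called none. Of the 6 members, 4 were desmosomal cadherins, all higher with urushiol: Dsc1 by 0.87 (95% interval 0.34 to 1.41, adjusted p = 0.445), Dsg1b by 0.69 (0.19 to 1.20, adjusted p = 0.600), Dsg1c by 0.54 (0.16 to 0.93, adjusted p = 0.562) and Dsg1a by 0.53 (0.18 to 0.89, adjusted p = 0.517). In these 4 genes every urushiol array lay above every oxazolone array. They were picked by p on the same arrays, so this adds no separate support, and its share over all genes was not counted. The other two were Gjb5, lower by 0.38 with urushiol (interval -0.74 to -0.03, adjusted p = 0.802), and the dim Cldn13, higher by 0.12 (adjusted p = 0.832), named after its value was seen.

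Of the 7 members whose calls with both allergens held whichever array was left out, Dsc1 and Gjb5 had intervals, given above, that left out 0 between allergens. Those of the other five, and of Cldn4, spanned 0: -1.96 to 2.58 for Gjb2, -0.69 to 1.77 for Gjb6, -0.30 to 1.14 for Dsg3, -0.31 to 1.44 for Dsc2, -1.80 to 0.50 for Cldn4 and -0.39 to 0.27 for Cldn23. Cldn23 is held to well under 1 unit between allergens, while Gjb2 could differ by over 1 unit either way. Counts of members called against control with each allergen share the same 3 control arrays, and no difference between those counts was tested.

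Dsg4 and Gja1 were low on the 2 control arrays with low follicle markers and highest on oxazolone array 2, where the follicle marker mean was also highest at 14.60. Cldn8, Cldn17 and Cldn20, named after their values were seen, peaked on the same array, at 8.68, 6.39 and 6.82. Cldn8 and Cldn17 are neighbours on chromosome 16, and Cldn8 lies next to the hair keratin-associated gene Krtap24-1. None of these claudins passed in either comparison with control: Cldn8 differed by 0.32 (adjusted p = 0.595) and -0.52 (adjusted p = 0.409), Cldn17 by 0.72 (adjusted p = 0.107) and 0.28 (adjusted p = 0.542), and Cldn20 by 0.60 (adjusted p = 0.107) and 0.24 (adjusted p = 0.522). The peak on oxazolone array 2 was not particular to these members. Cldn1 (15.34), Cldn12 (7.76), Cldn3 and Cldn14 (5.13 each), Gja3 (5.79), Gja4 (5.56) and Gja6 (6.18) were highest there too. How many of all genes peak on that array was not counted. The mean of melanocyte markers had the same lows and peak as the follicle markers, at 5.78 and 5.71 on control arrays 1 and 2 and 10.8 on oxazolone array 2. The mean of sebaceous gland markers was also highest there, at 13.09. The 13 follicle markers passed in neither comparison, and the part of any of these cell types in the members' values was not tested.

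**Figure D5:**
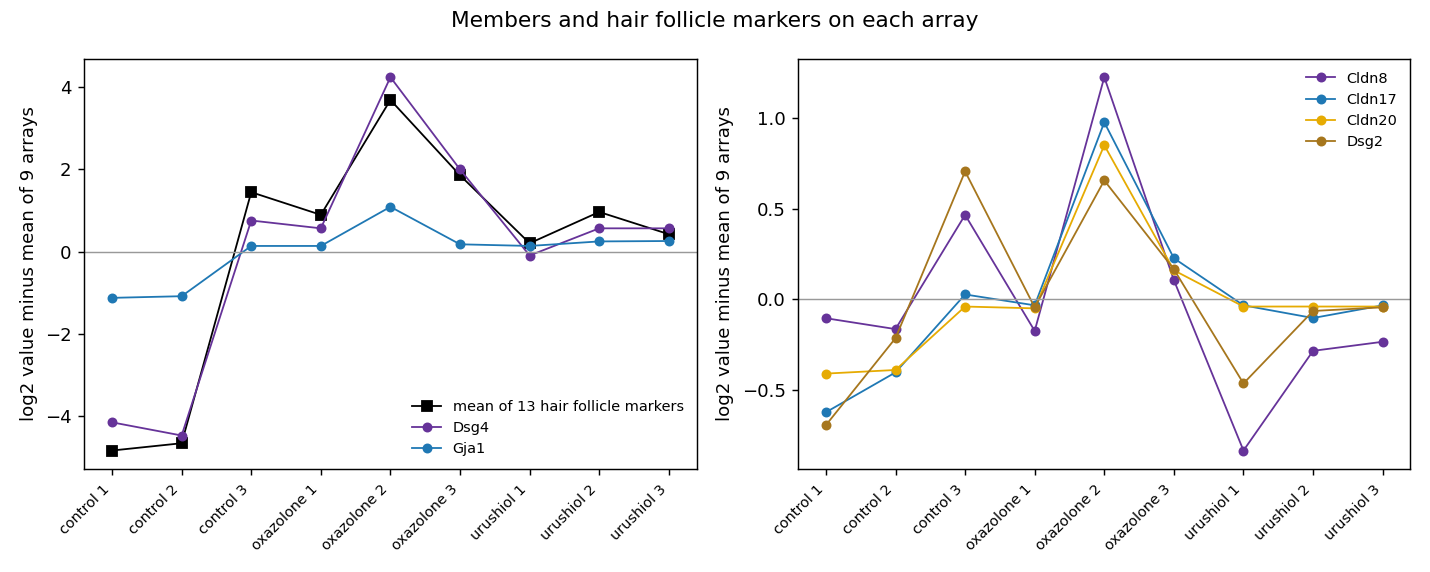
Log2 value minus the mean over 9 arrays (y axis, log2 units) on each array (x axis) for the mean of 13 hair follicle markers, Dsg4 and Gja1 (left), and for Cldn8, Cldn17, Cldn20 and Dsg2 (right, a finer scale). Lines only join the arrays in label order. The follicle mean, Dsg4 and Gja1 are lowest on control arrays 1 and 2 and highest on oxazolone array 2, where the claudins shown also peak.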

How the data were processed

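Affymetrix arrays of total RNA from neck skin gave 1 value per transcript cluster for 9 samples, grouped by their titles into control, oxazolone and urushiol. The deposited values are log2 expression; the submitters' processing notes name Affymetrix Expression Console 1.4, RMA and the Transcriptome Analysis Console, with no role or order. No build for the array is stated in the labels. After 6732 control features were left out, 30604 of 65956 clusters had 1 symbol in the platform annotation, 2146 several and 33206 none. Symbols of 827 clusters were updated by gene ID to RefSeq on GRCm38.p6, and the brightest cluster by mean stood for each of 30142 genes.

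Groups were compared with limma 3.58.1 (R 4.3.3; lmFit, eBayes, two-sided) in 1 fit of 9 arrays, with Benjamini-Hochberg adjustment over all genes and a threshold of 0.05. The number of arrays limits the precision (median SE 0.113), and exact permutation of 3 against 3 cannot go below p = 0.1. The fit was tested on simulated data. The file holds no detection calls, so dim means below the array's median on most arrays. Named in full were called members, up to 12 by size in each comparison, and known epidermal or vessel members, and of partner lists the 2 largest called changes in each direction, with Perp beyond that rule. Members, lists and rules were chosen with earlier results of these data known. Same-numbered oxazolone and urushiol arrays correlated in their deviations from group means at 0.201, 0.197 and 0.124, and differently numbered ones at -0.18 to 0.0214. Same-numbered pairs with controls ranged from -0.232 to 0.337, and differently numbered ones from -0.29 to 0.285. The labels do not say that the numbers pair animals, so the reported fit has no block by replicate number. Such a block entered only alternatives, in all 9 arrays with controls included and in the 6 challenged arrays alone. Alternatives were 13 other settings, of which the block in the 6 challenged arrays alone was added after seeing the data, and leaving out each of 9 arrays.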

Additional observations from a re-analysis of the deposited data

How the results depend on the processing

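The fit with the replicate block called 9 members with oxazolone (6 higher, 3 lower), 12 with urushiol (9 higher, 3 lower), 0 between allergens and 11 by the F test. It ended the calls of Cldn7 with oxazolone and of Dsg1a, Gjc3 and Gje1 with urushiol and no other call. Against 10 members called with oxazolone (7 higher, 3 lower), array weights called 16 (12 higher), and 2 groups alone, a threshold of 0.01 and the limma test treat at a difference of 0.5 called 6 each (4 higher); leaving out each array in turn gave 7 to 17 (5 to 13 higher, 2 to 4 lower). Against 15 with urushiol (11 higher, 4 lower), the threshold of 0.01 and treat called 7 each (5 higher, 2 lower), 2 groups alone called 2 lower, and leaving out each array gave 8 to 17 (5 to 13 higher, 2 to 4 lower). By the F test array weights called 18, the threshold of 0.01 called 6 and leaving out each array 6 to 17. Calls over all 30142 genes moved as well. From 4989 with oxazolone they became 7688 with array weights, 2198 with 2 groups alone, 1266 at 0.01 and 911 with treat. From 4942 with urushiol they became 8135, 2324, 1430 and 862 in that order. The F test went from 4241 to 7452 with array weights and 1210 at 0.01. Leaving out each array gave 2107 to 8019 with oxazolone, 2189 to 7655 with urushiol and 1509 to 7182 by the F test. Quantile renormalisation called 5 lower with oxazolone and 7 higher with urushiol, and turned Dsg1a with oxazolone from 0.02, not called, to -0.48, called lower. It also turned Dsg1c with oxazolone and Cldn1, Cldn3 and Gja4 with urushiol, which were not called there before or after. It shifted the median of all genes by -0.065 and -0.045. No alternative called a member between allergens. The counts of 17 came without control array 3; why the settings differ was not tested. The filter on dim genes kept 25 of 48 members.

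Equal readings were common: 19 of 48 members (39.6%) and 47.8% of all genes had the same 2-decimal value on at least 3 of 9 arrays. Among genes spanning over 1 unit this held for 791 of 8225 (9.62%), and for 780 of those (98.6%) the shared value was the median of the 9 arrays, as for Gja1 at 9.07 and Dsg4 at 10.33. The cause was not tested.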
